A study of Ovis aries with 4 samples.

Results

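The cells described here are helper T cells of the lactating sheep mammary gland, taken as T cells with transcripts of CD4 or CD40LG. Barcodes with at most 20% mitochondrial UMIs (unique molecular identifiers, 1 per captured transcript) entered a T cell gate, which asked for at least 1 UMI of CD3E or CD247, fewer than 5 UMIs of DCN, and 0 UMIs of EPCAM, C1QA and EDNRA. A gated cell was a helper cell when it held at least 1 UMI of CD4 or CD40LG and 0 UMIs of CTLA4 and IL2RA. The rule found 795 helper cells among 5193 gated T cells (15.3%) and 38886 kept barcodes (2.04%). The study profiled mammary tissue of 4 lactating ewes by sequencing the RNA of single cells caught in droplets. Each ewe gave 1 library, and each of 2 stages, peak and late lactation, was sampled in 2 ewes. LL stands for late lactation in the series, and LH was taken as peak lactation by elimination. The labels give no breed, age, treatment or udder health, and no group other than the stage. Values of the 4 libraries are given throughout in the order LH replicate 1, LH replicate 2, LL replicate 1 and LL replicate 2, and helper cells numbered 454, 55, 139 and 147 in that order.

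Helper T cells recognise peptide on MHC class II through the T cell receptor, with CD4 as the coreceptor that binds the MHC molecule. They act on other cells through CD40LG, the ligand of CD40 on B cells, macrophages and dendritic cells, and through secreted cytokines such as interferon gamma, TNF and interleukin 4. CD28 gives the costimulatory signal that accompanies receptor engagement. In the mammary gland, helper cells lie among epithelium and stroma next to cytotoxic and gamma-delta T cells.

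All values that set the gate are descriptions with no test. Levels are given in CPM, the UMIs of a gene per 1000000 UMIs summed over a cell set of a library. CD4 reached 362, 309.7, 357 and 388 CPM in helper cells, and CD40LG reached 493, 492, 317 and 397 CPM. The receptor chain CD3E stood at 401, 337, 398 and 491 CPM in helper cells and at 475, 425, 399 and 454 CPM in the gated T cells without CD4, CD40LG, CTLA4 and IL2RA, called CD4-negative T cells from here on. CD247, the zeta chain, stood at 77.3, 82.9, 84.9 and 86.0 CPM against 99.4, 115, 76.2 and 117 CPM. The T cell gate asked for either of these genes in both sets, so cells with CD247 alone were admitted. The name CD4-negative rests on UMIs counted, and cells whose CD4 or CD40LG RNA was missed fall in that set. CD28, the marker of the label that the gate did not use, had UMIs in 65.9, 67.3, 64.7 and 64.6% of helper cells.

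The calls of single cells rested on few UMIs. A single UMI of CD4 and CD40LG together admitted 133, 24, 55 and 74 helper cells, 286 of the 795. On the other side of the rule, 108, 29, 35 and 20 gated T cells with CD4 or CD40LG were left out for a UMI of CTLA4 or IL2RA, of which 45, 10, 22 and 11 held exactly 1 such UMI. DCN was at 0 in 741 helper cells and at 4 UMIs, just inside the limit, in 1 cell. CD4 alone was seen in 255 helper cells, CD40LG alone in 269 and both in 271. Among gated T cells without CTLA4 and IL2RA, CD40LG was found in 57.5, 54.8, 42.6 and 39.8% of cells with CD4 and in 7.30, 4.15, 4.68 and 6.99% of cells without it. With each cell thinned to 1000 UMIs these shares were 29.7, 25, 16.7 and 31.8% and 5.49, 2.68, 2.49 and 6.09%.

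Free RNA gives UMIs of a gene in cells that do not express it, so EPCAM-positive cells without CD3E and CD247 were read as a background. CD4 had UMIs in 2.84, 0.359, 0.662 and 1.11% of them and CD40LG in 2.13, 0.431, 0.496 and 0.725%, at median depths of 11161, 9274, 9847 and 9537 UMIs, against medians of 3422, 2852, 2911 and 2196 UMIs in helper cells. CD28 was found in 4.96, 1.01, 2.81 and 1.76% of these epithelial cells. As a check that the gate did not read its own counts back, the UMIs of every cell were split at random in 2, one set for the gate and the other for the levels. In the unused set CD4 stood at 331, 392, 229.8 and 266 CPM in helper cells and 24.5, 11.7, 12.5 and 27.7 CPM in CD4-negative T cells. CD40LG stood at 463, 638, 184 and 211 CPM against 20.9, 13.4, 13.4 and 14.7 CPM. Both genes were therefore higher in helper cells of all 4 libraries in counts that had not chosen the cells.

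The libraries held between 5853 and 12639 kept barcodes, and gated T cells made up 42.6, 7.06, 8.90 and 8.26% of them, so LH replicate 1 stands apart as the library richest in T cells. Summed helper UMIs were 1863834, 180844, 447696 and 360615, which leaves LH replicate 2 with the least data and LH replicate 1 with the most. Between 15 and 39 barcodes were shared by any pair of libraries, and 0 of them were helper cells in both libraries of the pair. Of 20150 genes, 774 carried a symbol, and genes known by identifier alone are not analysed here by name. Scores of likely doublets (pairs of cells under 1 barcode) fell in the highest 6% of their library for 9.69, 9.09, 6.47 and 4.76% of helper cells and 5.73, 5.28, 5.78 and 4.71% of the other gated T cells.

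Helper cells made up 18.2, 8.32, 12.4 and 16.1% of gated T cells. Counting error alone gave exact 95% intervals (Clopper-Pearson) that ran from 16.7 to 19.8%, from 6.33 to 10.7%, from 10.5 to 14.4% and from 13.8 to 18.7%. The highest and the lowest share were both in LH, so the stages overlapped. The mean was 13.3% ± 6.98 in LH and 14.2% ± 2.67 in LL (SD, n = 2 each), a difference of 0.991 percentage points (exact two-sided permutation test over 6 arrangements, p = 1, smallest possible p = 0.33). Without LH replicate 1 the difference was 5.93 points, and without LH replicate 2 it was -3.94 points. Thinning each cell to 1000 UMIs before the gate gave 10.9, 4.74, 6.74 and 11.4%, with LH replicate 2 again lowest. Of all kept barcodes, helper cells were 7.76, 0.588, 1.0998 and 1.33%, and the high value of LH replicate 1 goes with its high share of T cells.

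**Figure D1:**
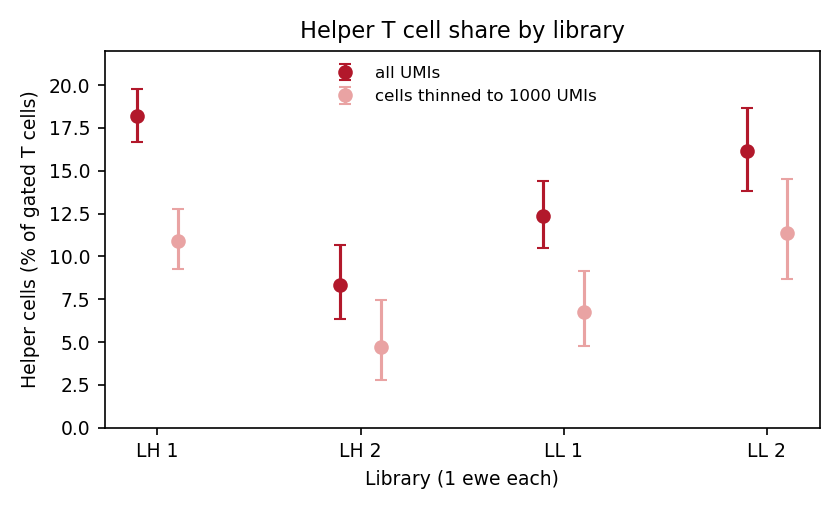
Share of helper cells among gated T cells in each library, in percent, with exact 95% binomial intervals as bars, for all UMIs and for cells thinned to 1000 UMIs. LH replicates 1 and 2 hold the highest and the lowest share of all UMIs, 18.2% and 8.32%, with both LL libraries between them.

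Among genes with a symbol, helper cells were higher than CD4-negative T cells in the costimulatory receptors CD28 and SLAMF1, the cytokines IL4, IL1A, IFNG and TNF, the regulators BHLHE40 and PPARG, the hormone receptor GHR and the integrin ITGB1, and lower in the chemokine XCL1. Sums of UMIs per library and cell set were compared by edgeR's quasi-likelihood test with the ewe as a block, and a gene was called at a Benjamini-Hochberg adjusted p under 0.05. Log2 fold changes are given ± their standard error. IFNG was not higher in every library, and the calls of IFNG, TNF and PPARG, among others, were lost in other fits given below. Against CD4-negative T cells, 831 of 8348 genes tested were called (9.95%), 453 higher (5.43%) and 378 lower (4.53%) in helper cells. Called or not, 12.4% of the genes tested were higher and 17% lower in helper cells of all 4 libraries. Of the 373 genes tested that had a symbol, 53 were called, 44 higher and 9 lower. Against all other gated T cells, which include those with CTLA4 or IL2RA, 670 of 8634 genes were called (7.76%), 312 higher (3.61%) and 358 lower (4.15%), and 41 of the 42 called genes with a symbol were also called against CD4-negative T cells. Without the ewe as a block the counts were 102 and 60, and with the gate and the levels read from separate UMIs they were 397 and 322. Against CD4-negative T cells, 532 genes were called without LH replicate 1, 531 without LH replicate 2 and 464 without LL replicate 2. Against all other gated T cells, 412 were called without LH replicate 2 and 373 without LL replicate 2.

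CD28 and SLAMF1 were higher in helper cells. CD28 stood at 583, 503, 433 and 663 CPM in helper cells and at 83.4, 54.5, 165 and 109.7 CPM in CD4-negative T cells. The lowest helper value lay above the highest CD4-negative value (log2 fold change 2.50 ± 0.21, edgeR adjusted p = 6.22e-06). SLAMF1, a self-binding costimulatory receptor of lymphocytes, had 179, 188, 183 and 205 CPM against 61.9, 39.7, 89.3 and 101 CPM. Its helper level was nearly the same in all 4 ewes, and the groups did not overlap (log2 1.42, edgeR adjusted p = 0.000113). Without the block SLAMF1 kept its call here, whereas against all other gated T cells its adjusted p in edgeR was 0.0711. In the list of costimulatory and checkpoint receptors, 4 of 30 genes could be tested besides the gate genes. Of the 4, 2 were called higher, beside 44 of the 373 tested genes with a symbol. The other two, CD80 and CD86, ligands of CD28 that activated T cells can also carry, had log2 values of 0.52 and 0.96 without a call. The list's median log2 was 1.19, beside -0.01 over all genes tested.

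**Figure D2:**
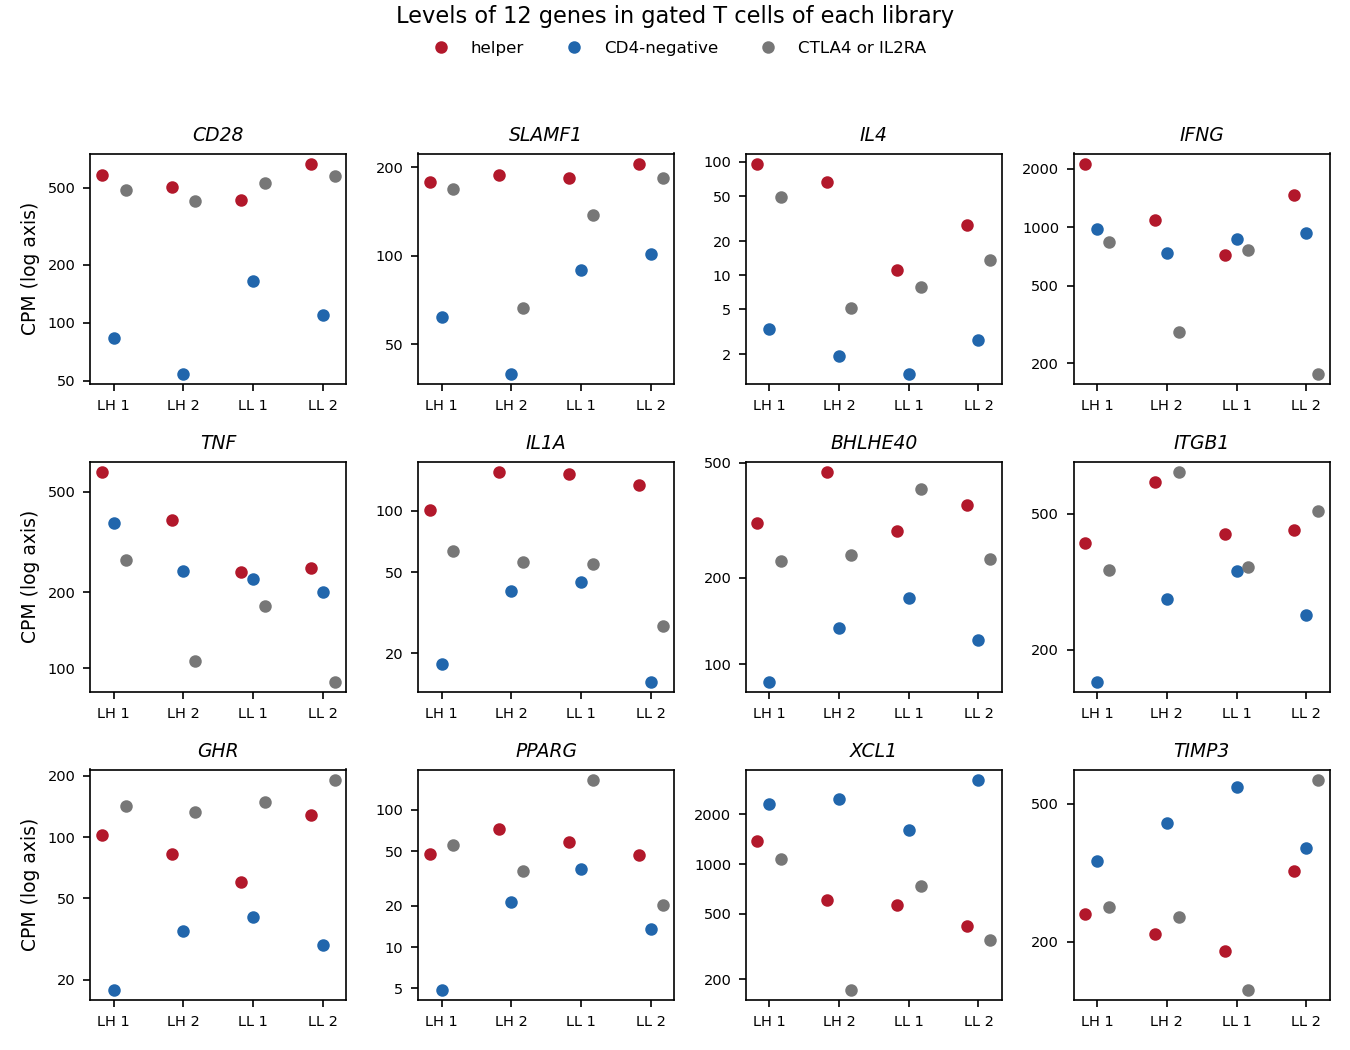
Levels of 12 genes in CPM on a log axis in each library (points), for helper cells, CD4-negative T cells and gated T cells with CTLA4 or IL2RA. CD28, SLAMF1, IL4, IL1A, BHLHE40, ITGB1, GHR and PPARG lie higher in helper than in CD4-negative T cells of all 4 libraries, XCL1 and TIMP3 lie lower in all 4, and IFNG lies higher in 3 of 4.

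Of the genes with a symbol that were tested against CD4-negative T cells, IL4 had the largest fold change. It passed the filter on low counts through its helper sums alone, where it was high, so its rank is a description. IL4, the defining cytokine of type 2 helper cells, stood at 96.0, 66.4, 11.2 and 27.7 CPM in helper cells and at 3.36, 1.92, 1.35 and 2.69 CPM in CD4-negative T cells. Every helper value lay above every CD4-negative value (log2 fold change 4.42 ± 0.36, edgeR adjusted p = 4.36e-06). The counts behind it were 179, 12, 5 and 10 UMIs in helper cells, so LH replicate 1 carried most of them, and in LH replicate 2 a single cell held 10 of 12 UMIs. Without LH replicate 1 the log2 fold change was 3.83 (edgeR adjusted p = 0.000154). IL4 was found in 10.6, 5.45, 3.60 and 4.08% of helper cells and in 0.473, 0.0718, 0.165 and 0.0691% of the epithelial cells. Thinned to 1000 UMIs, the helper shares were 6.73, 1.82, 0 and 2.16%. The mean IL4 level was 2.33 CPM in CD4-negative T cells and 4.15 CPM in all other gated T cells, which include those with CTLA4 or IL2RA. Against all other gated T cells the log2 fold change was 3.45. IL4 had too few counts to be tested against the cells with CTLA4 or IL2RA alone.

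The type 1 cytokines were also higher, by less. IFNG, the main macrophage-activating cytokine of T cells, had 2114, 1084, 717 and 1472 CPM in helper cells and 981, 736, 873 and 929.9 CPM in CD4-negative T cells. It was higher in 3 of 4 libraries, with LL replicate 1 the other way (log2 0.57, edgeR adjusted p = 0.0369). TNF had 599, 387, 241 and 249.6 CPM against 376, 242, 226 and 201 CPM and was higher in helper cells of all 4 ewes, though by little in LL replicate 1 (log2 0.49, edgeR adjusted p = 0.0195). TGFB1, a cytokine that restrains T cells, was tested as well and not called (log2 0.36, edgeR adjusted p = 0.189). Of 24 listed helper cytokines, 13 had a symbol and these 4 had counts enough to test. Of the 4, 3 were called higher, beside 44 of the 373 tested genes with a symbol. DESeq2 kept IL4 and lost IFNG (adjusted p = 0.128) and TNF (adjusted p = 0.0582). IFNG had UMIs in 25.3, 3.73, 9.59 and 5.35% of the epithelial cells and TNF in 31.2, 19.5, 15.7 and 14.7%, at their greater depth, and the part of free RNA in the levels of either gene was not tested.

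Other helper cytokines were scarce. IL5 and IL13, which type 2 helper cells make together with IL4, and IL3 had 0 UMIs in the 795 helper cells, which allows up to 0.377% of helper cells with a UMI (3 counts, counting error only). IL2, the T cell growth factor, had 5, 0, 5 and 1 UMIs. IL21 and IL22, products of follicular and type 17 or 22 helper cells, had 10 and 4 UMIs, all in LH replicate 1. IL10 had 3 UMIs there and 0 elsewhere. FOXP3, the regulator of regulatory T cells, had 1, 0, 1 and 1 UMIs in helper cells, and was found in 2.67, 11.5, 4.29 and 2.22% of gated T cells with CTLA4 or IL2RA.

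IL1A, an alarm cytokine better known from epithelium and myeloid cells, was the second cytokine of large difference. It stood at 100.3, 155, 152 and 133 CPM in helper cells and at 17.7, 40.4, 44.5 and 14.5 CPM in CD4-negative T cells. The groups did not overlap (log2 fold change 2.35 ± 0.21, edgeR adjusted p = 6.82e-06). IL1A is 1 of 4 genes with a symbol in the list of neutrophil and inflammatory myeloid markers. The list summed to 101, 155, 156 and 133 CPM in helper cells, mostly IL1A, and to 22.6, 58.3, 57.0 and 17.2 CPM in CD4-negative T cells. In helper cells IL1B stood at 1.07, 0, 0 and 0 CPM, and CXCL8 and PTGS2 had UMIs in LL replicate 1 only. Macrophage markers, 6 of 14 with a symbol, summed to 4.83, 11.1, 8.93 and 2.77 CPM in helper cells and 0.611, 16.0, 13.1 and 5.38 CPM in CD4-negative T cells. In helper cells LYZ was at 0 in all 4 libraries and C1QA at 0 by the gate. TLR4 had UMIs in all 4, MRC1 in LH replicate 1, and FCGR1A and CD14 in LL replicate 1. The mast cell markers FCER1A and TPSB2 were at 0 in helper cells. IL1A was found in 20.3, 29.1, 21.6 and 15.0% of helper cells and in 11.1, 8.62, 5.62 and 4.91% of epithelial cells. At 1000 UMIs per cell these shares were 10.8, 10.9, 13.0 and 7.19% and 1.92, 1.58, 0.835 and 0.731%.

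XCL1 and ID3 were lower in helper cells. XCL1, the chemokine by which cytotoxic T cells and natural killer cells attract dendritic cells, had 1386, 608, 565 and 419 CPM in helper cells and 2298, 2489, 1604 and 3229.5 CPM in CD4-negative T cells. Helper cells were lower in all 4 ewes, least so in LH replicate 1 (log2 fold change -1.69 ± 0.24, edgeR adjusted p = 0.000435). With gate and levels from separate UMIs the log2 value was -1.59, and without the block the call was lost (edgeR adjusted p = 0.0619). XCL1 was found in 52.4, 12.7, 20.9 and 17.01% of helper cells, 76.5, 73.6, 52.4 and 64.8% of CD4-negative T cells and 44.0, 14.1, 16.3 and 13.8% of epithelial cells. Thinned to 1000 UMIs the helper and epithelial shares were 37.9, 9.09, 12.3 and 11.5% and 16.8, 3.199, 4.84 and 2.51%. Of 32 listed cytotoxic and natural killer genes, 2 could be tested, XCL1 and FCGR3A (log2 -0.27, not called). ID3, a transcriptional inhibitor of naive and gamma-delta T cells, was lower too, at 42.4, 82.9, 42.4 and 36.0 CPM against 62.5, 119.8, 80.2 and 99.0 CPM (log2 -0.77, edgeR adjusted p = 0.0151), a call that was lost without LL replicate 2 (edgeR adjusted p = 0.0908).

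Regulators and receptors of hormones and matrix were among the remaining higher genes. BHLHE40, a stress-induced repressor that is also part of the clock and shapes cytokine output in helper cells, had 309, 464, 290.4 and 358 CPM against 87.1, 134, 169.5 and 121 CPM. Its groups did not overlap (log2 fold change 1.53 ± 0.16, edgeR adjusted p = 2.44e-05). Of 6 clock genes tested, all 6 had a log2 above 0, with a list median of 0.34 beside -0.01 over all genes. Only 1 of them, BHLHE40, was called, beside 44 of the 373 tested genes with a symbol called higher. ITGB1, the beta 1 integrin that pairs into matrix receptors and marks memory T cells, had 410.4, 619, 436 and 449 CPM against 161, 281, 339.7 and 253 CPM and was also without overlap (log2 0.97, edgeR adjusted p = 0.000491). The other integrins and ICAM1 of the adhesion list were not called.

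GHR, the growth hormone receptor, stood at 102, 82.9, 60.3 and 128 CPM in helper cells and at 17.9, 34.6, 40.8 and 29.6 CPM in CD4-negative T cells (log2 1.77, edgeR adjusted p = 0.000607). PPARG, a nuclear receptor that helper cells with a type 2 programme use, stood at 47.8, 71.9, 58.1 and 47.1 CPM against 4.89, 21.1, 37.1 and 13.4 CPM (log2 1.95, edgeR adjusted p = 0.00231). Both genes were higher in helper cells of every ewe and without overlap. The epithelial cells held both genes as well, with GHR in 28.4, 30.7, 36.6 and 20.6% and PPARG in 4.02, 8.08, 14.4 and 6.46% of them, while CD4-negative T cells of the same libraries held GHR in 3.77, 7.22, 7.64 and 4.87% and PPARG in 1.02, 4.51, 6.11 and 2.78%. Luminal epithelial markers, 10 of 16 with a symbol, summed to 19.3, 249, 114 and 141 CPM in helper cells and 28.6, 249.9, 282 and 169 CPM in CD4-negative T cells. Of these 10 genes, 3, 4, 7 and 4 had UMIs in helper cells. LALBA was at 0 in all helper sums and EPCAM at 0 by the gate, while the caseins CSN1S1, CSN2, CSN1S2 and CSN3 had UMIs in LL replicate 1. The PPARG call was lost with gate and levels from separate UMIs (log2 1.28, edgeR adjusted p = 0.0518) and without the block. HLF, a clock output factor that was not in the clock list, and SERPINB1, an inhibitor of neutrophil proteases, had log2 values of 1.23 and 1.20. Their calls (edgeR adjusted p = 0.0215 and 0.0246) were lost when single libraries were left out: HLF without any of the 4, SERPINB1 without LH replicate 2 or LL replicate 2.

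**Figure D3:**
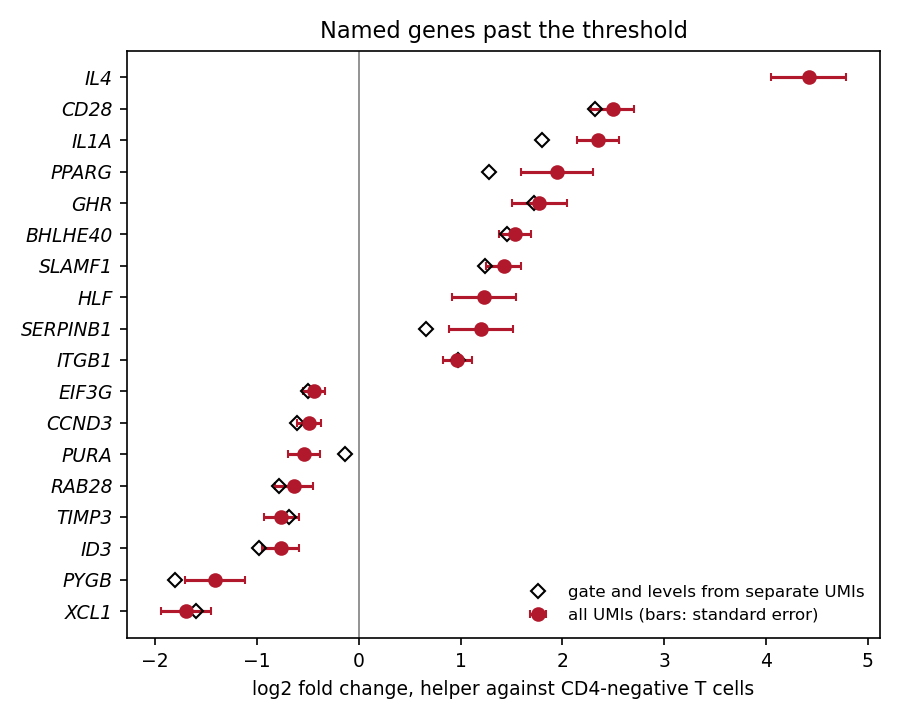
Log2 fold change of helper cells against CD4-negative T cells (n = 4 ewes) for the named genes past the threshold, with standard errors as bars. Open diamonds give the value with the gate read from one set of UMIs and the levels from the other, where the gene could still be tested. CD28, GHR, BHLHE40, SLAMF1, ITGB1 and XCL1 lie close to their first value, PPARG and SERPINB1 nearer to 0.

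The other genes that fell were of several kinds. TIMP3, a matrix-bound inhibitor of metalloproteases, had 239.8, 210.1, 188 and 319 CPM in helper cells and 342, 441, 558 and 373 CPM in CD4-negative T cells, with no overlap (log2 -0.76, edgeR adjusted p = 0.0102). PYGB, a glycogen phosphorylase, had 13.4, 16.6, 6.70 and 19.4 CPM against 48.3, 44.2, 19.2 and 25.8 CPM (log2 -1.41, edgeR adjusted p = 0.00595), a call that was lost without LH replicate 1 (edgeR adjusted p = 0.205). The D-type cyclins, which drive entry into the cell cycle, moved apart. CCND2 was at 156, 133, 118 and 80.4 CPM against 81.7, 64.7, 72.8 and 74.8 CPM (log2 0.76, edgeR adjusted p = 0.00764). CCND3 was at 611, 288, 462 and 455 CPM against 1008, 537, 532 and 589 CPM (log2 -0.49, edgeR adjusted p = 0.0153). CCND2 was thus higher and CCND3 lower in helper cells of all 4 ewes, though the CCND3 call held in the fit that left out LL replicate 1 and in no other fit with a library left out. EIF3G, a translation initiation subunit, RAB28, a small GTPase, and PURA, a nucleic acid binding protein, fell by 0.44, 0.63 and 0.54 on the log2 scale, and each of these calls was lost in 3 or 4 of the 4 fits with 1 library left out. DESeq2 also lost RAB28 and PURA. PDGFB, a growth factor subunit, was also called lower (log2 -2.49, edgeR adjusted p = 0.0329). It lies outside the rule for named genes and was added after its value was seen, to complete the 9 lower genes.

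Gene lists of T cell biology held few genes with a symbol and are given by counts. List members all carry a symbol, and 44 of the 373 tested genes with a symbol were called higher. That share, above the 5.43% of all genes tested, is the one to read the counts beside. In the immediate early list, which also responds to tissue dissociation, 3 of 8 genes tested were called higher, FOS, BTG2 and BTG1. FOS, a subunit of the AP-1 factor, stood at 2258, 3727, 3192 and 2964 CPM in helper cells and 1151, 2263, 2305 and 1720.4 CPM in CD4-negative T cells (log2 0.78, edgeR adjusted p = 6.47e-05). In the NF-kappa-B list, 1 of 3 was called, NFKBIA, the inhibitor that NF-kappa-B induces, with 1331, 1344, 1166 and 1916 CPM against 875, 861, 922 and 1164 CPM (log2 0.62, edgeR adjusted p = 0.00047). From the interferon list, the immunoproteasome subunit PSMB8 (log2 0.46) and the class I light chain B2M (0.39) were called higher. DESeq2 lost BTG1 (adjusted p = 0.0925) and B2M (adjusted p = 0.0562). In the glycolysis list, 2 of 5 were called higher, the glucose transporter SLC2A3 (log2 0.54) and GAPDH (0.49), with a median of 0.49. CD52, a lymphocyte surface glycoprotein, was called among 3 genes tested of the T cell receptor list (log2 0.41, edgeR adjusted p = 0.00751), whereas the kinase LCK and the chain CD3D were not (log2 -0.06 and 0.36).

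The genes of the mitochondrial genome lay slightly lower. All 13 had a log2 below 0 against CD4-negative T cells under each of the 3 scalings tried, and none was called. Their median was -0.17 beside -0.01 over all genes. In every ewe 7 of the 13 were lower, as 17% of all genes tested were. The median mitochondrial share per cell was 4.28, 1.86, 3.63 and 3.33% in helper cells and 5.69, 2.14, 4.01 and 3.70% in CD4-negative T cells. Of 6 nuclear genes of oxidative phosphorylation, 3 lay above and 3 below 0, and none was called. The homing receptor CXCR4, the ligand CXCL12 of which keeps cells in tissue, stood at 104, 127, 132 and 161 CPM in helper cells against 109, 105, 114 and 132 CPM and was not called (log2 0.18, edgeR adjusted p = 0.586).

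Most called genes had an identifier alone. ENSOARG00000018331 rose (log2 2.23, mean 571 CPM in helper cells and 121 CPM in CD4-negative T cells), as did ENSOARG00000016184 (log2 1.58). ENSOARG00000012585 fell from 5703 CPM in CD4-negative T cells to 210.0 CPM in helper cells (log2 -4.45), and ENSOARG00000009143 had a log2 of -4.37. The sources used here do not pair these identifiers with names.

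The comparison with gated T cells that carry CTLA4 or IL2RA, of which there were 187, 52, 70 and 45, set helper cells against T cells with genes that activated and regulatory T cells carry. These cells had higher depth, with medians of 4374, 3568, 3263 and 2657 UMIs, and they were chosen on the absence or presence of the same genes, so CTLA4 and IL2RA are not tested. Of 3974 genes tested, 34 were called (0.856%), 5 higher (0.126%) and 29 lower (0.73%) in helper cells. TNF was higher in helper cells, at 599, 387, 241 and 249.6 CPM against 269, 107, 177 and 88.4 CPM (log2 fold change 1.12 ± 0.19, edgeR adjusted p = 0.0133). IL1A was higher as well, at 100.3, 155, 152 and 133 CPM against 63.7, 56.1, 55.0 and 27.2 CPM (log2 1.15, edgeR adjusted p = 0.041). Both exceeded the CTLA4 or IL2RA cells in all 4 ewes, as 11.3% of all genes tested did.

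IL12RB2, the signalling chain of the interleukin 12 receptor, was lower in helper cells, at 105, 82.9, 24.6 and 116 CPM against 279, 276, 102 and 428 CPM (log2 fold change -1.69 ± 0.17, edgeR adjusted p = 0.000188). CD9, a tetraspanin of membranes and vesicles, had 20.9, 22.1, 26.8 and 24.96 CPM against 56.1, 214, 58.9 and 136 CPM (log2 -1.89, edgeR adjusted p = 0.00659). Both were lower in every ewe, as 8.66% of all genes tested were. CD28 did not differ beyond its error (log2 0.08 ± 0.13), nor did ITGB1 (0.06 ± 0.13). SLAMF1 (0.33 ± 0.20) and PPARG (-0.36 ± 0.34) were not called, and XCL1 had a log2 of 0.37 ± 0.24. IFNG was higher by a log2 of 1.35 without a call (edgeR adjusted p = 0.0793), and GHR had -0.74 (edgeR adjusted p = 0.0999). The count of calls was 18 without LH replicate 1, 8 without LH replicate 2 and 2 without the block. The TNF call was lost without LH replicate 1 or LH replicate 2, that of IL1A in each fit with a library left out except the one lacking LH replicate 1, and that of CD9 without LH replicate 2.

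Helper cells also varied among themselves. Those with CD40LG numbered 323, 41, 85 and 91, and those with CD4 alone 131, 14, 54 and 56, with median depths of 3580.0, 2852, 3022 and 2142 and 2774, 2808, 2662 and 2252 UMIs. Of 2945 genes tested between them, 2 were called (0.0679%), both higher with CD40LG. IFNG stood at 2403, 1299, 833 and 1832 CPM in cells with CD40LG and at 1257, 469, 528 and 837 CPM in cells with CD4 alone. It was higher with CD40LG in all 4 ewes, as 5.6% of all genes tested were, while 8.52% were lower in all 4 (log2 fold change 1.04 ± 0.12, edgeR adjusted p = 0.00194). FOS followed, at 2378, 3979.6, 3483 and 3286 CPM against 1903, 3006, 2718 and 2396 CPM, again in all 4 ewes (log2 fold change 0.43 ± 0.07, edgeR adjusted p = 0.0415).

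CD28 did not differ beyond its error between the kinds of helper cell, at 584, 567, 447 and 621 CPM and 582, 319.7, 411 and 737 CPM (log2 0.12 ± 0.16). Without LH replicate 1, the richest library, neither IFNG (log2 1.09, edgeR adjusted p = 0.117) nor FOS was called, and without LL replicate 2 the count was 1. With gate and levels from separate UMIs, IFNG kept its log2 (1.02) and lost its call, while FOS went to 0.09. None of the genes next in rank was called, among them the clock gene CRY1 (log2 0.68), NFKBIA (0.27), the serine carrier SFXN1 (-0.66) and the calcium-binding SRI (0.32).

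**Figure D4:**
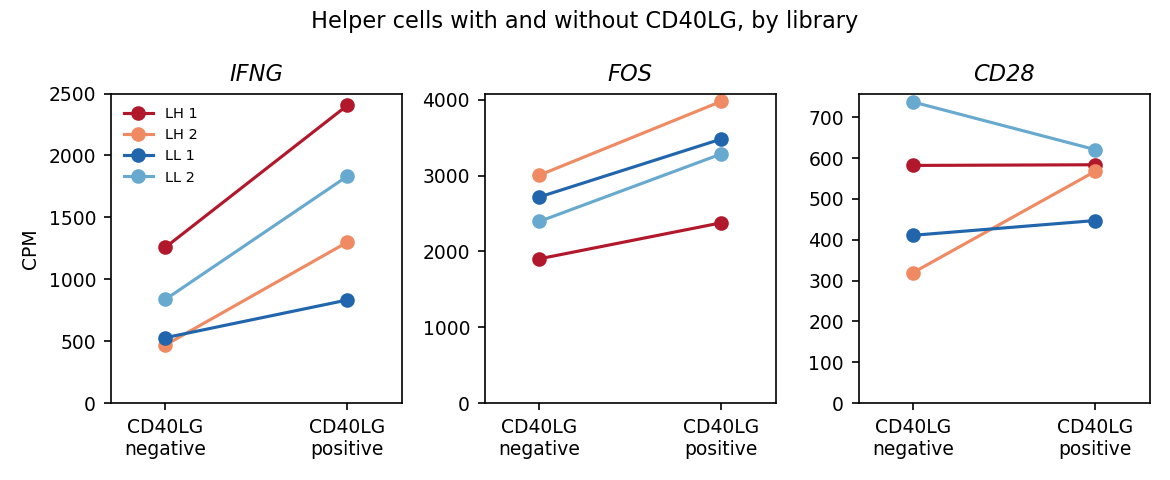
Levels in CPM of IFNG, FOS and CD28 in helper cells without and with a UMI of CD40LG, with 1 line per library. All 4 lines rise for IFNG and FOS, and those of CD28 go both ways.

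The cells that carried IL4 were few, and most of them came from 1 ewe. IL4 was found in 62 helper cells, 48, 3, 5 and 6 by library. XCL1 was found in 75.8% of them and in 34.4% of the 733 helper cells without IL4. IFNG was found in 82.3% against 57.8%, TNF in 75.8% against 50.8% and CD28 in 79.0% against 64.4%. These pooled shares follow LH replicate 1. In LL replicate 2, IFNG was found in 33.3% of cells with IL4 and 58.9% of those without, and TNF in 16.7% and 34.0%. In LH replicate 2, TNF was found in 0 of the 3 cells with IL4, and in LL replicate 1, CD28 in 60.0% of the 5 cells with IL4 and 64.9% of the others. Within LH replicate 1 the XCL1 shares were 87.5% and 48.3%, at median depths of 3189.5 and 3452 UMIs. In LL replicate 2, 0 of the 6 cells with IL4 had XCL1. Cells are not replicates, so these shares carry no test.

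XCL1 itself marked a part of the helper cells. Its UMIs lay in 238 cells of LH replicate 1 and in 7, 29 and 25 cells of the other libraries. IFNG was found in 74.6% of the 299 helper cells with XCL1 and in 50.8% of the 496 without. The IFNG share was higher with XCL1 in all 4 libraries. CD28 was found in 65.6% and 65.5%, pooled shares that follow LH replicate 1, while in LH replicate 2 they were 28.6% of 7 cells and 72.9% of 48. Free XCL1 RNA was highest in the same library, as given above for epithelial cells, and its part in these shares was not tested.

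Late lactation was compared with peak lactation within helper cells, over 4 sums with 2 ewes per stage. None of 4848 genes was called by edgeR's quasi-likelihood test (0%), with 165 at an unadjusted p under 0.05, while DESeq2 called 3. Leaving out any 1 library gave between 19 and 55 called genes, fits in which the lone library of a stage is assumed to vary like the pair of the other stage. Over all genes, both LL ewes lay above both LH ewes for 15.7% and below for 14.1%.

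IL4 had the largest difference of the named genes without overlap. By its LL sums alone it would not have passed the filter on low counts, so its rank is a description. The same holds for CPT1A and IGFBP5, named below. Its helper levels of 96.0, 66.4, 11.2 and 27.7 CPM put both LH ewes above both LL ewes (log2 fold change -2.19 ± 0.44, edgeR adjusted p = 0.335). Of the 4 helper cytokines tested, all 4 had a log2 below 0, IL4, TNF (-1.03), TGFB1 (-0.85) and IFNG (-0.57). Of these, 3 were without overlap, as were 14.1% of all genes in this direction and 15.7% in the other. The median was -0.94 beside -0.00 over all genes. None of the 4 passed the test. XCL1 had 1386, 608, 565 and 419 CPM and a log2 of -1.03, and LH replicate 1 was its highest library. The call on IL4 changed with the fit. It was called without a filter on low counts (edgeR adjusted p = 0.000767), without LH replicate 2 (0.0132) and without LL replicate 2 (0.00406).

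ABHD5 and CPT1A, genes of lipolysis and of fatty acid oxidation, were also lower in LL, without a call in the main fit. ABHD5, the coactivator of the lipase that opens stored triglyceride, had 113, 166, 35.7 and 33.3 CPM in helper cells (log2 fold change -1.93 ± 0.36, edgeR adjusted p = 0.266). CPT1A, the gatekeeper of fatty acid entry into mitochondria, had 83.7, 77.4, 20.1 and 24.96 CPM (log2 fold change -1.86 ± 0.35, edgeR adjusted p = 0.286). Both LH ewes lay above both LL ewes for either gene. In the other gated T cells ABHD5 had 109, 68.3, 42.8 and 41.4 CPM and CPT1A 88.1, 88.2, 26.1 and 56.3 CPM, also without overlap and in the same order of stages. In LH replicate 2, 1 helper cell held 10 of the 30 UMIs of ABHD5. Without LH replicate 2, edgeR called both genes (adjusted p = 0.0214 and 0.0222). Of 7 genes tested in the fatty acid and sterol list, 6 had a log2 below 0, 4 of them without overlap, and none was called. The list median was -0.80 beside -0.00 over all genes. Over all genes, both LL ewes lay below both LH ewes for 14.1% and above for 15.7%. Lipid genes went both ways without overlap. HADHA, of fatty acid oxidation, was higher in LL (log2 0.18), and ACLY (-0.80) and ACACA (-0.46), of fatty acid synthesis, were lower. Luminal epithelial markers summed to 19.3, 249, 114 and 141 CPM in helper cells and were lowest in LH replicate 1. Their part in these values was not tested.

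Among the genes described above as called against CD4-negative T cells, several had stage differences larger than their standard errors, none of them called in the main fit. They included IL4, TNF, XCL1, IFNG (log2 -0.57 ± 0.40), CCND2 (-0.54 ± 0.33) and HLF (1.16 ± 0.62). The 6 that follow had differences within their standard errors. CD28 had a log2 of -0.00 ± 0.30, SLAMF1 of 0.09 ± 0.29, IL1A of 0.24 ± 0.34, GHR of -0.05 ± 0.38, PPARG of -0.04 ± 0.36 and ITGB1 of -0.20 ± 0.31. ARNT, a partner of hypoxia factors, had 124, 77.4, 237 and 155 CPM. It was the 1 gene higher in LL among those that the rule for named genes took for the stages (log2 0.88, edgeR adjusted p = 1). GGTA1, which makes the alpha-gal sugar, RMND5A, a ubiquitin ligase subunit, and IGFBP5, a binding protein of insulin-like growth factors, had log2 values of -0.75, -0.82 and -1.74 without a call.

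**Figure D5:**
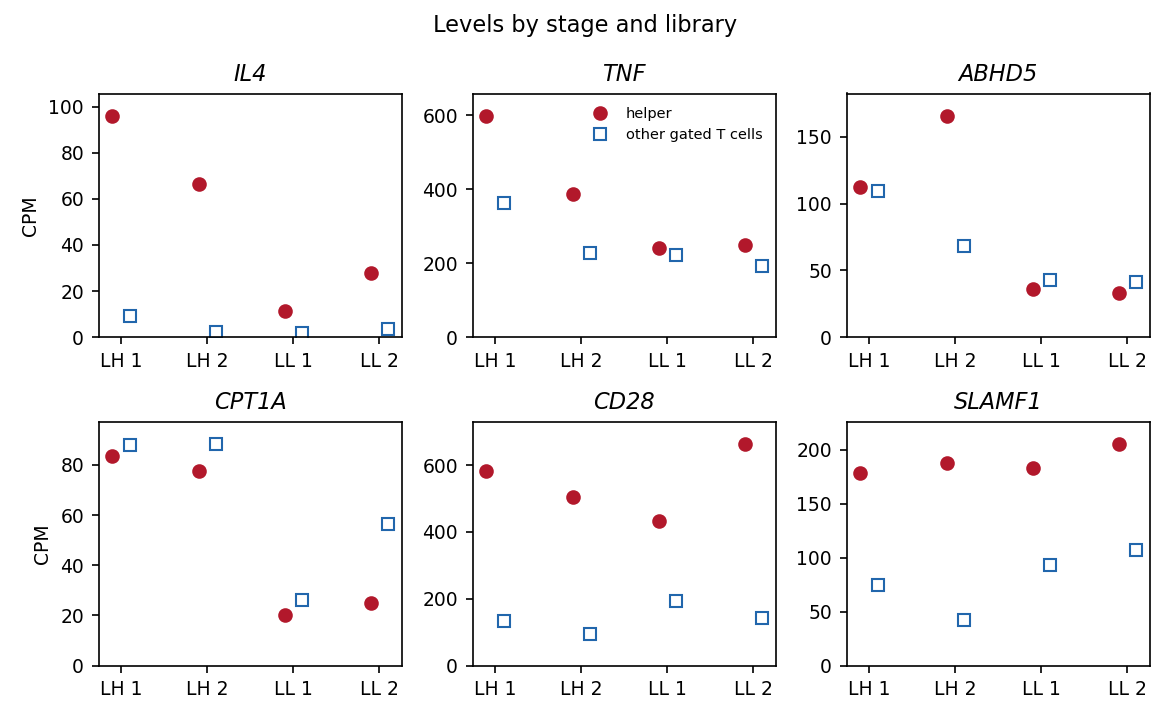
Levels in CPM of 6 genes in each library, for helper cells (filled circles) and all other gated T cells (open squares). IL4, TNF, ABHD5 and CPT1A are higher in both LH than in both LL libraries of helper cells, and CD28 and SLAMF1 overlap between stages.

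A test of the interaction asked whether the stage difference of helper cells departs from that of the other gated T cells. It called 74 of 8634 genes (0.857%), 2 higher (0.0232%) and 72 lower (0.834%), and DESeq2 called 7. IL4 (log2 -0.88, edgeR adjusted p = 0.996), XCL1 (adjusted p = 0.242) and TNF (-0.53, adjusted p = 0.543) were not among them in edgeR, nor were CPT1A and ABHD5. The 5 called genes with a symbol were IGFBP5, RELN, CAV1, TPM1 and NFIB, known from endothelium, stroma or contractile cells. DESeq2 kept IGFBP5 (adjusted p = 0.000899) and lost the other 4.

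The values of these 5 genes rested on few cells. IGFBP5 had 31.7, 49.8, 13.4 and 8.32 CPM in helper cells and 8.43, 19.9, 85.0 and 49.3 CPM in the other gated T cells (log2 fold change -4.39 ± 0.50, edgeR adjusted p = 7.47e-06). RELN, a secreted glycoprotein that lymphatic endothelium makes, had 26.3, 22.1, 11.2 and 11.1 CPM against 4.28, 2.28, 68.3 and 13.0 CPM. Both genes were higher in the other T cells of LL and lower in those of LH. In LH replicate 1, 1 helper cell held 27 of 49 RELN UMIs and 1 helper cell held 29 of the 59 IGFBP5 UMIs. CAV1, the coat protein of caveolae, had 23.1, 33.2, 38.0 and 13.9 CPM against 6.96, 31.9, 130.0 and 19.9 CPM. TPM1, a tropomyosin of contractile cells, had 32.2, 365, 35.7 and 22.2 CPM against 19.5, 147, 57.1 and 55.8 CPM, and in LH replicate 2 a single helper cell held 39 of its 66 UMIs. Endothelial markers, 5 of 13 with a symbol, summed to 48.8, 27.6, 51.4 and 11.1 CPM in helper cells and 20.5, 15.9, 338 and 25.4 CPM in the other gated T cells, highest in LL replicate 1 of the latter. With cells that hold a UMI of RELN, F8, KDR, SELE or SELP left out, a choice made after seeing these values, 16 genes were called, 14 of them among the 74. Without LL replicate 1 the count was 12, without LL replicate 2 39, without LH replicate 1 32 and without LH replicate 2 134. With gate and levels from separate UMIs, 0 genes were called.

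Markers of other cell types were also summed in helper cells. Fibroblast markers, 7 of 12 with a symbol, summed to 45.1, 188, 232 and 125 CPM in helper cells and 63.5, 134, 310.4 and 169.9 CPM in CD4-negative T cells, and contractile markers, 6 of 14 with a symbol, to 33.8, 387, 46.9 and 22.2 CPM and 21.1, 159, 67.1 and 66.7 CPM. LH replicate 2 was highest of the helper sums for contractile and luminal markers, and its contractile sum lay above its CD4 level of 309.7 CPM. Their part in the helper results was not tested. The B cell list had 1 gene with a symbol, CR2, at 0 UMIs. The dendritic and red cell lists had none.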

How the data were processed

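Mammary tissue of 4 ewes was profiled as droplet single-cell libraries. The deposited matrices hold raw UMI counts per gene and barcode made with Cell Ranger, per the file headers, and the smallest barcode holds 500 UMIs. The submitters' processing notes name Cell Ranger 5.0.1, STAR and Seurat 3.2.0, and the file headers name Cell Ranger 7.2.0. Genome build and annotation are not given in the sources used here. Of 20150 genes, 774 have a symbol in the files, and 0 of the remaining identifiers matched the reference table.

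Barcodes above 20% mitochondrial UMIs were left out, and the gate was applied to raw counts with Python 3.11.15. UMI counts were summed per library and cell set. Levels are unscaled CPM of these sums. Fold changes and p-values come from edgeR 4.0.16 (quasi-likelihood test, TMM, filterByExpr with a minimum count of 10, R 4.3.3), adjusted over all genes tested, with the 10 gate genes left out and the ewe as a block where cell sets of an ewe were compared. DESeq2 1.42.0 was an alternative, as were the settings in the closing section. Doublet scores came from Scrublet in scanpy 1.11.5. Its automatic threshold called 0 cells in LH replicate 1, so the highest 6% per library were called, and these cells were left out in an alternative only. Thinning drew 1000 UMIs per cell without replacement and dropped shallower cells. The tests were tested on simulated data. P-values between stages measure the spread between 2 ewes.

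Named genes have a symbol and are, per comparison of cell sets, up to 10 higher and 10 lower of largest fold among those called, with at least 20 CPM in the higher set and the same direction in 4 libraries. For the CD40LG and stage comparisons the 10 of lowest p were taken where fewer were called, with no overlap between stages. Members of the gene lists were also named as examples of their list. One result of the interferon list is not reported here. The helper cells and gene lists were chosen with earlier results of these data known.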

Additional observations from a re-analysis of the deposited data

Results flagged for a closer look

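The difference between late and peak lactation in helper cells departed from that in the other gated T cells for 5 genes with a symbol, by edgeR's test of the interaction over 8 sums. DESeq2 kept IGFBP5 and lost RELN (adjusted p = 0.0502), TPM1 (0.208), CAV1 (0.871) and NFIB (0.99993). The log2 difference was -4.39 ± 0.50, edgeR adjusted p = 7.47e-06 for IGFBP5. It was -4.58 ± 0.65, edgeR adjusted p = 0.000177 for RELN and -2.76 ± 0.51, edgeR adjusted p = 0.00491 for CAV1. It was -1.98 ± 0.38, edgeR adjusted p = 0.00568 for TPM1 and -1.80 ± 0.43, edgeR adjusted p = 0.0329 for NFIB. NFIB, a transcription factor of epithelium and stroma, stood at 47.2, 88.5, 55.8 and 63.8 CPM in helper cells and at 15.1, 84.8, 136 and 58.3 CPM in the other gated T cells. Without LL replicate 1, in which endothelial markers of the other T cells were highest, IGFBP5 was still called (edgeR adjusted p = 0.0226), and RELN had a log2 of -2.98 (edgeR adjusted p = 0.556), and CAV1, TPM1 and NFIB also lost their calls. With cells holding endothelial UMIs left out, TPM1 was called (log2 -1.99, edgeR adjusted p = 0.0103), whereas IGFBP5 (-2.08), CAV1 (-1.26) and NFIB (-0.93) were not.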

How the results depend on the processing

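Values for single genes kept their direction and side of the threshold in 658 of 798 settings, lost a call in 127, gained one in 12 and reversed in 1, SRI between helper cells with and without CD40LG (-0.0185 with gate and levels from separate UMIs). With 1 library left out, calls ranged from 373 to 782 against other gated T cells, 464 to 1030 against CD4-negative T cells, 8 to 44 against T cells with CTLA4 or IL2RA, 0 to 2 by CD40LG, 19 to 55 for LL against LH and 12 to 134 for the interaction. The difference in share ranged from -3.94 to 5.93 points and was -0.90 without LL replicate 2. With gate and levels from separate UMIs the counts were 322, 397, 16 and 0 for the cell comparisons in that order and 0 for the interaction. Without a filter on low counts they were 102 for T cells with CTLA4 or IL2RA, 27 by CD40LG, 59 for the stages and 129 for the interaction. DESeq2 called 3 genes for the stages and 7 for the interaction. With doublet calls left out the counts were 55 for CTLA4 or IL2RA, 1 by CD40LG and 2 for the stages. With CD3E required they were 1 by CD40LG, 1 for the stages and 39 for the interaction, and with at most 10% mitochondrial UMIs 1 for the stages. With endothelial UMIs left out, added after seeing the data, they were 1 by CD40LG and 16 for the interaction. The cause of these changes was not tested.

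Without the ewe as a block, calls were 60 against other gated T cells, 102 against CD4-negative T cells, 2 against CTLA4 or IL2RA and 0 by CD40LG. Between stages, equal replicate numbers mark different ewes, and same-numbered deviations had r = -0.05 over 4848 genes. A replicate block by that number called 31 genes.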
